A study of Mus musculus with 4 samples.

Results

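Occupancy of the transcription factors Ptf1a and c-Myc around Xbp1 and Hspa5, genes of the secretory stress response, was described from the deposited peak lists of chromatin immunoprecipitation followed by sequencing (ChIP-seq) of mouse pancreas. A peak is a stretch of the genome where the authors' peak caller found an accumulation of reads. A peak was assigned to Xbp1 when its midpoint lay on chromosome 11 between 5370000 and 5470000, and to Hspa5 when it lay on chromosome 2 between 34580000 and 34680000, on mouse build mm9. These windows of 100 kb held 18 of the 23096 peaks in both lists, 11 of 17632 Ptf1a peaks and 7 of 5464 Myc peaks. The Xbp1 window held 16 of the 18 and the Hspa5 window held 2.

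Both libraries came from pancreas of 8-week-old Ela1-Myc mice, in which the acinar elastase 1 promoter drives a c-Myc transgene. The Ptf1a library was made from 1 mouse and the Myc library from a pool of 3 mice. The inputs, from 5 mice including the Ptf1a mouse and from the 3 Myc mice, were not analysed here. Every library carried the transgene, so the lists allow no comparison with pancreas that lacks it, and no expression data were used. Since each factor has a single library, no value below has an error between mice and none was tested.

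Acinar cells make and export large amounts of digestive enzymes, and the folding of these proteins loads the endoplasmic reticulum (ER). Xbp1 encodes a basic leucine zipper transcription factor whose mRNA is spliced by the ER stress sensor Ire1 when unfolded protein builds up, and its product drives genes of ER expansion, folding and degradation. Hspa5 encodes BiP, the main chaperone of the ER lumen, which binds nascent and unfolded chains and holds the stress sensors inactive. Ptf1a is the basic helix-loop-helix factor of the acinar programme, and in acinar cells it works in a complex with an E protein and the DNA-binding protein Rbpjl. c-Myc is a basic helix-loop-helix leucine zipper factor of growth and proliferation that binds E-boxes with its partner Max.

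To show short motifs next to the 2 genes, the 250 bases before each annotated gene start are given from RefSeq on GRCm38.p6, plus strand. They are chr11:5520391-5520640 for Xbp1 and chr2:34771840-34772089 for Hspa5. Capitals mark matches on either strand to the E-box CANNTG and to TGGGAA (the second box of the site bound by the complex of Ptf1a). They also mark the ER stress element (CCAAT, 9 bases of any kind, CCACG). This element was searched for the secretory stress role of the genes, not as letters read by Ptf1a or Myc.
Xbp1: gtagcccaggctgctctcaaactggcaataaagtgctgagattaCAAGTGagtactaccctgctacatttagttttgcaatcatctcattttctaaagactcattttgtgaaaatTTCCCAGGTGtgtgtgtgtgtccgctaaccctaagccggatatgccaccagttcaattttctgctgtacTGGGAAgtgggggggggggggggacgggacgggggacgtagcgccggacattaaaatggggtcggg
Hspa5: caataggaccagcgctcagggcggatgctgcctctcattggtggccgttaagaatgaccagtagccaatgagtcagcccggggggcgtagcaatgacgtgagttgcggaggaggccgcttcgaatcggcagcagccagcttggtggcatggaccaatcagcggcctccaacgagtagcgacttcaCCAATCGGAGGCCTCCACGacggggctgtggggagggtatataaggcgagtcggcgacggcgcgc
The Xbp1 promoter held 2 E-boxes, beginning 206 and 131 bases before the start, and 2 TGGGAA boxes, beginning 135 and 66 bases before it. The second E-box shares bases with the first TGGGAA box, so the pair appears as 1 run of capitals. The boxes were searched singly, without a rule for the spacing between them, so the run does not stand for a whole site of the complex. Neither promoter held the E-box form CACGTG, which 6.02% of the 32851 promoters of this length in the table hold. An E-box of any form was in 66.2% of them and a TGGGAA box in 21.6%, so these matches are common letters. The Hspa5 promoter held no E-box and no TGGGAA box but 4 CCAAT boxes. At least 1 CCAAT box was in 33.8% of the promoters. The last of the 4 begins an ER stress element that starts 65 bases before the gene. This element was in 37 of the 32851 promoters (0.113%). For a list of 28 secretory stress genes, chosen for that role and with Hspa5 among them, 24 promoters were found. Enrichment in this list was not tested. Of these 24 promoters 14 held an E-box of any form, 6 a TGGGAA box and 3 the form CACGTG. The shares over all promoters were 66.2%, 21.6% and 6.02%, as given above. The ER stress element was in 8 of these 24 promoters: Calr, Canx, Creld2, Dnajc3, Hsp90b1, Hspa5, Pdia6 and Syvn1. These genes encode ER chaperones, folding factors and parts of the ER degradation machinery, and their peaks were not looked up for want of mm9 gene positions. For the same reason the peaks below were not placed on these promoters: coordinates of the 2 builds differ and were not converted. Positions are therefore given on mm9 and as distances from the centre of each window, not from a gene start. In RefSeq order the protein-coding neighbours of Xbp1 are Znrf3 and Ccdc117 and those of Hspa5 are Gapvd1 and Rabepk, and a peak in a window may lie in or near a neighbour.

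The number of peaks differed between the 2 genes. Around Xbp1 there were 10 Ptf1a and 6 Myc peaks. Around Hspa5 there was 1 peak of each factor. The Ptf1a peaks covered 5.84% of the Xbp1 window and 0.489% of the Hspa5 window, and the Myc peaks 5.40% and 0.611%. The score that the peak caller gave each peak ranged from 53.6 to 1693 for the Ptf1a peaks around Xbp1 (median 181) and was 109.8 for the single Ptf1a peak around Hspa5. The median of the whole Ptf1a list was 116. Myc peaks scored 53.9 to 155.9 around Xbp1 (median 93.1) and 52.7 around Hspa5, with a list median of 75.2. Neither Hspa5 peak reached the median of its list, while 6 of 10 Ptf1a and 5 of 6 Myc peaks around Xbp1 exceeded it. The scale of the score is not stated, and scores are compared within a list. Strong and weak below refer to this score, not to a measured amount of binding.

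**Figure D1:**
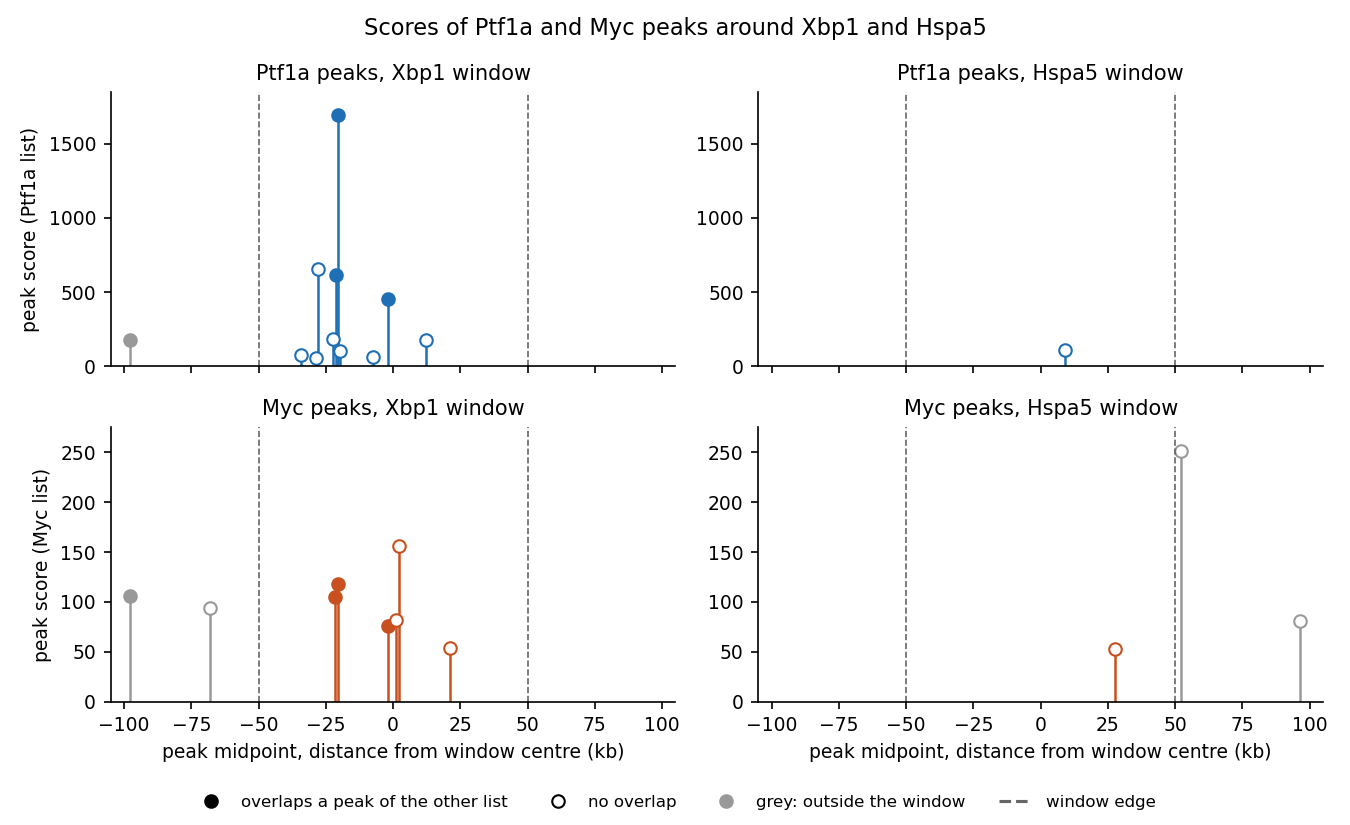
Peak score against the distance of the peak midpoint from the window centre (kb), for Ptf1a (top) and Myc (bottom) around Xbp1 (left) and Hspa5 (right); 1 point is 1 peak, filled where it overlaps a peak of the other list. Dashed lines are the window edges and grey points lie outside. The Xbp1 window holds 10 Ptf1a and 6 Myc peaks, the Hspa5 window 1 of each.

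The strongest Ptf1a peak around Xbp1 lay on chromosome 11 at 5399119 to 5399894, with its midpoint 20.5 kb below the window centre. Its score of 1693 ranked it 157 of 17632, so that 0.89% of the list scored as high. It made up 41.7% of the summed score of the 10 Ptf1a peaks. Its 776 bp lay wholly within a Myc peak at 5398858 to 5399987, whose score was 117.8 (rank 1105 of 5464), and the midpoints were 84 bp apart. The Ptf1a score at this position was thus among the highest of its list, while 20.2% of Myc peaks scored as high as its Myc partner.

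This peak was the largest of a group of 4 Ptf1a peaks. Next to it, at 5398256 to 5398966, lay a Ptf1a peak of score 612 (rank 1701), separated from it by 152 bp. That peak shared 573 bp with a Myc peak at 5398117 to 5398828 (score 104.4) and 109 bp with the larger Myc peak. The outer peaks of the group were weaker. The lower, at 5397524 to 5398105 (score 185), ended 11 bp before the nearest Myc peak, and the upper, at 5400231 to 5400667 (score 99.3), began 243 bp after a Myc peak ended. The 4 Ptf1a peaks together spanned 3144 bp and the 2 Myc peaks, 29 bp apart, spanned 1871 bp of the same stretch. The gaps of 150 and 152 bp between the first 3 Ptf1a peaks were shorter than the sheared fragments of 300 to 500 bp. So was the gap between the 2 Myc peaks. The gap of 336 bp to the upper Ptf1a peak lay within the fragment range. Whether all these peaks are separate sites therefore cannot be told from the lists. The same holds elsewhere in the window for Ptf1a peaks 316 bp apart and Myc peaks 412 bp apart.

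The second place with both factors was near the window centre. A Ptf1a peak at 5417593 to 5418626 (score 451, rank 2556) was, at 1034 bp, the widest of the 10. It enclosed a Myc peak at 5417660 to 5418487 (score 76.1), and their midpoints, 36 bp apart, lay 1.89 and 1.93 kb below the centre. The Myc peak nearest to the centre and the strongest Myc peak of the window came just after it, without Ptf1a. They lay at 5420662 to 5421156 (score 81.8, midpoint 0.91 kb above the centre) and at 5421569 to 5422896 (score 155.9, rank 576, midpoint 2.23 kb above it). The stretch of 13.2 kb from the end of the wide Ptf1a peak to the next Ptf1a peak held both of them. Thus the highest Myc score around Xbp1 and the highest Ptf1a score were at different places, with midpoints on opposite sides of the centre.

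**Figure D2:**
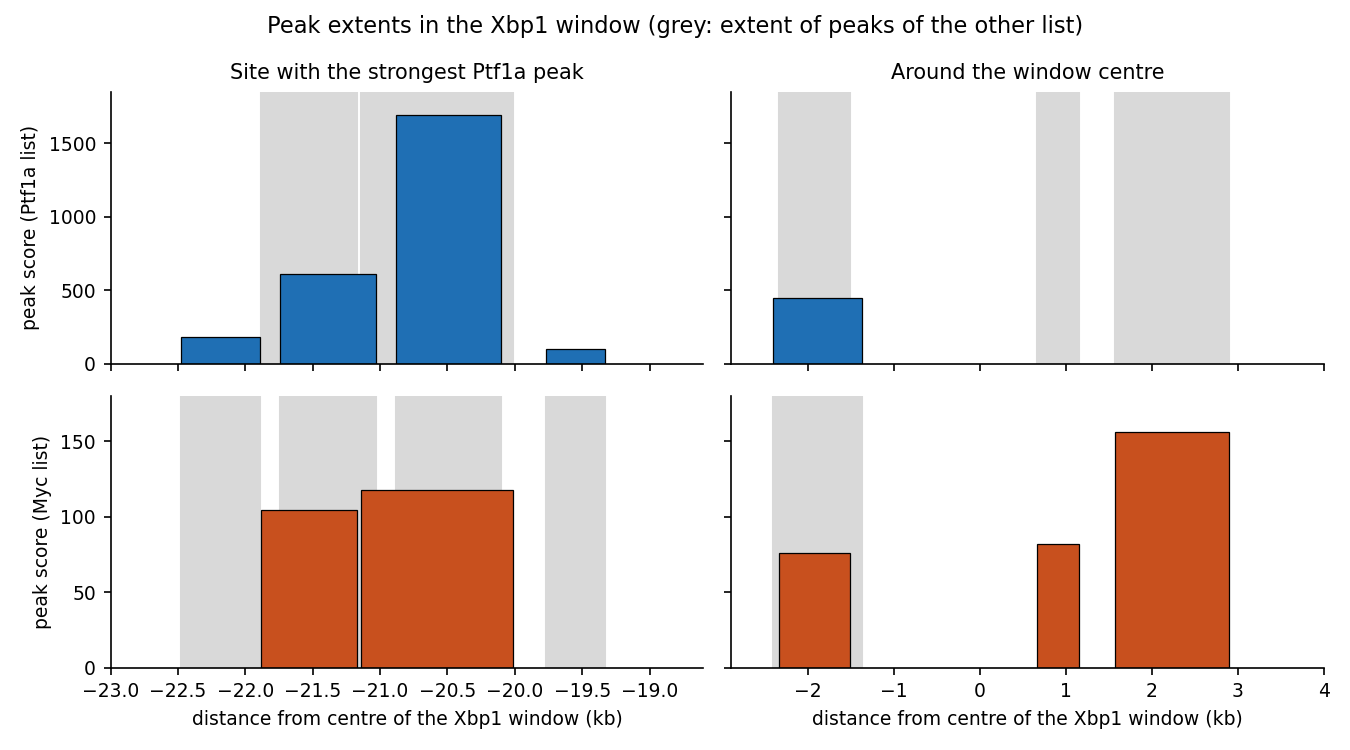
Peaks drawn to scale, with bar width as the extent of the peak (kb from the centre of the Xbp1 window) and bar height as its score, at the site of the strongest Ptf1a peak (left) and around the centre (right). Grey bands mark the extent of peaks of the other list; the 2 Myc peaks above the centre stand where the Ptf1a list has no peak.

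The remaining Ptf1a peaks around Xbp1 overlapped no Myc peak. The strongest of them, at 5391895 to 5392402, had a score of 655 (rank 1518, within the highest 8.61% of the list), and its nearest Myc peak was 5.71 kb away. Beside it at 5391309 to 5391578 stood the narrowest and weakest Ptf1a peak of the window, 270 bp wide with a score of 53.6. Peaks at 5385696 to 5386159 (score 78.7) and 5412241 to 5412765 (score 59.3) were also weak. The peak at 5431821 to 5432350 (score 176.9) was the single Ptf1a peak above the centre, and the other 9 lay below it. The Myc peaks were spread evenly, 3 below and 3 above, and the outermost, at 5440749 to 5441656, was the weakest (score 53.9).

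In all, 3 of the 10 Ptf1a peaks around Xbp1 overlapped a Myc peak by at least 1 bp, against 13.4% of the whole Ptf1a list. Of the 6 Myc peaks 3 overlapped a Ptf1a peak, against 41.4% of the Myc list. A difference of 1 or 2 peaks would bring either count to the share of its list, so these counts do not set the window apart. Joining peaks of a list at most 500 bp apart left 6 Ptf1a and 4 Myc sites around Xbp1, of which 2 of each were shared, against 13.4% of 16753 joined Ptf1a sites and 41.9% of 5300 joined Myc sites. The Ptf1a peaks with a Myc partner scored 451, 612 and 1693, and those without scored between 53.6 and 655. The groups overlap, since the unshared peak of score 655 exceeded 2 of the 3 shared peaks. Among the 157 Ptf1a peaks of the list that scored as high as the strongest one here, 73 (46.5%) overlapped a Myc peak. Among the 576 Myc peaks as strong as the strongest one here, which had no Ptf1a partner, 291 (50.5%) overlapped a Ptf1a peak. Of the 10 Ptf1a peaks 6 scored at least 100, against 56.6% of their list, and of the 6 Myc peaks 3 did, against 28.7% of theirs. The spread of the members over their lists is shown by the plot of score against rank.

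**Figure D3:**
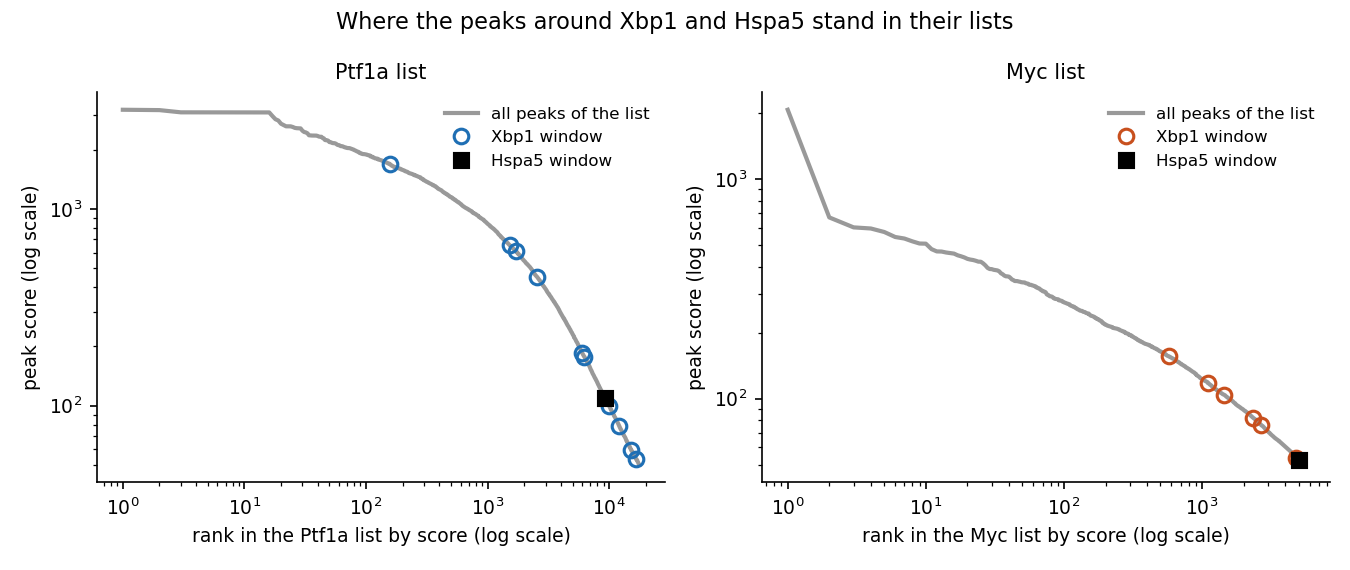
Score against rank for all peaks of the Ptf1a list (left) and the Myc list (right), both axes on a log scale, with the peaks of the Xbp1 window (circles) and the Hspa5 window (squares) marked. The Xbp1 peaks run from rank 157 to 16639 of 17632 for Ptf1a and from 576 to 4824 of 5464 for Myc.

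Around Hspa5 the Ptf1a peak lay on chromosome 2 at 34638727 to 34639215, 8.97 kb above the window centre, with a width of 489 bp and a score of 109.8 (rank 9234 of 17632). The Myc peak lay at 34657503 to 34658113, 27.8 kb above the centre, with a width of 611 bp and a score of 52.7 (rank 4999 of 5464), close to the lowest score of the list, 50.0. Their edges were 18.3 kb apart and their midpoints 18.8 kb. They did not overlap, as was the case for most peaks: 13.4% of Ptf1a and 41.4% of Myc peaks overlapped the other list. Of the unshared peaks, 73.1% in the Ptf1a list and 50.1% in the Myc list lay as far from the other factor, measured between midpoints. Both were ordinary or weak for their lists: 52.4% of Ptf1a peaks scored as high as the first and 91.5% of Myc peaks as high as the second. The nearest other Ptf1a peak was 144 kb away between midpoints, a distance reached by 6.61% of the list. With the depth of both libraries unknown, further sites around this chaperone gene may lie below the threshold of the peak caller and would then not be listed.

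Peak density was set beside that of 25584 tiles of 100 kb between the first and last peak of each assembled chromosome without Y. As many Ptf1a peaks as around Xbp1 were found in 78 tiles (0.305%) and as many Myc peaks in 18 (0.0704%). Both at once were reached by 6 tiles (0.0235%). These shares depend on how peaks and tiles are counted. With peaks at most 500 bp apart joined, 1.65% of tiles held as many Ptf1a sites and 0.453% as many Myc sites as the Xbp1 window. For Ptf1a peaks with a score of at least 100 the share was 0.592%. Among tiles with a peak of either list it was 0.935% for Ptf1a and 0.216% for Myc. The 78 tiles with 10 or more Ptf1a peaks held between 0 and 9 Myc peaks, with a median of 2.5, and 5 of them held none. At least 1 Ptf1a peak, as around Hspa5, was found in 29.8% of tiles, at least 1 Myc peak in 14.2%, and at least 1 of each in 11.4%. No peak of either list was in 67.4% of tiles. Tiles were not checked for gaps of the assembly, where no peak can be called, and the windows were placed around genes while tiles were not. The tiles lay on a fixed grid, and a tile border cut the group of peaks that the Xbp1 window holds whole. Other groups may be cut in the same way, which lowers the count of a tile. With the grid shifted by 50 kb, 0.289% of tiles held as many Ptf1a and 0.0821% as many Myc peaks as the Xbp1 window.

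**Figure D4:**
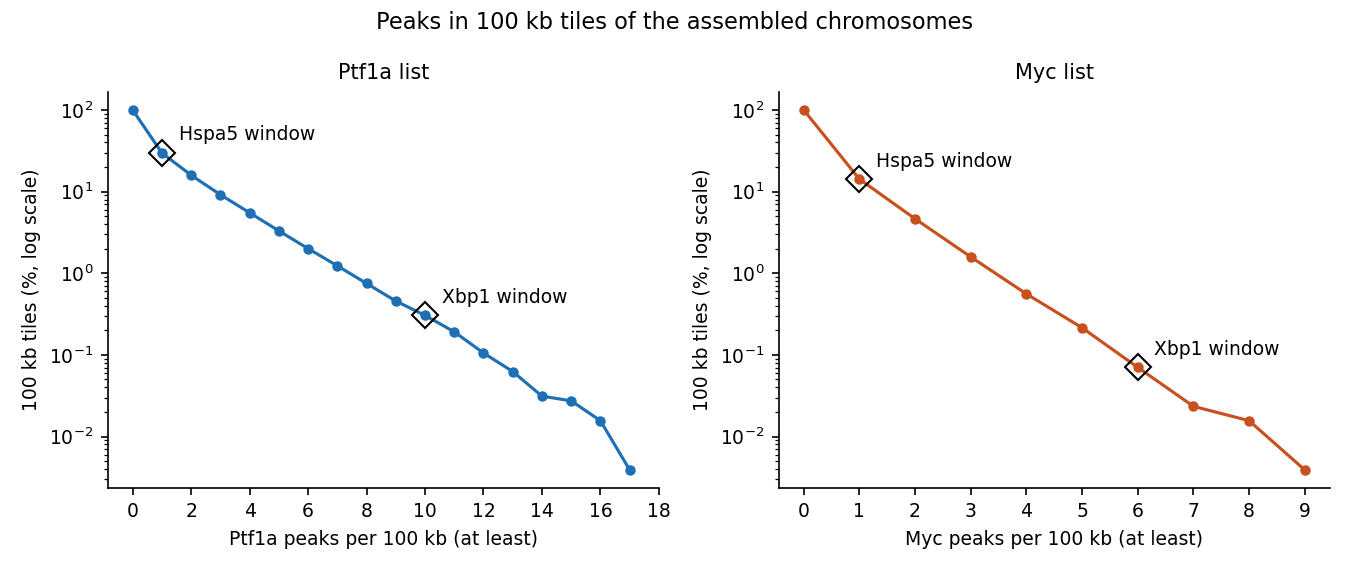
Share of 100 kb tiles (%, log scale) with at least the number of Ptf1a peaks (left) or Myc peaks (right) on the horizontal axis; diamonds mark the numbers in the 2 windows. The Xbp1 window lies in the tail of both curves (0.305% and 0.0704% of tiles, or 1.65% and 0.453% with close peaks joined), the Hspa5 window near their start.

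Joined at distances of at most 12.5 kb, the first 9 Ptf1a peaks around Xbp1 formed a chain from 5385696 to 5418626, a stretch of 32.9 kb. The Ptf1a list held 47 chains with at least as many peaks, among 1455 chains of 3 or more. This standing depends on the limit, which was not varied. The widest gap inside the chain was 11.6 kb, and the gap that left out the last Ptf1a peak was 13.2 kb. The chain also counts the close peaks that may not be separate sites. The Myc peaks formed a chain of 2 at the strongest Ptf1a site, a chain of 3 at the centre (5417660 to 5422896) and a single peak. The Myc list held 717 chains of 2 or more and 177 of 3 or more. The Ptf1a peak around Hspa5 stood alone, as did 43.9% of the list, and so did the Myc peak, as did 69.3% of the Myc list.

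The window edges mattered for the Myc count around Hspa5. A Myc peak at 34681607 to 34682619, with its midpoint 2.11 kb beyond the upper edge, scored 251 (rank 134 of 5464), more than any Myc peak in either window, and overlapped no Ptf1a peak. The nearest Ptf1a peaks outside this window were 180 kb below and 103 kb above its edges, with scores of 89.8 and 69.98. For Xbp1 no peak stood close to an edge. The nearest outside were a Myc peak of score 93.7 at 18.1 kb and a Ptf1a peak of score 174 at 47.9 kb below the lower edge. Above the upper edge the nearest Ptf1a and Myc peaks were 212 and 213 kb away.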

How the data were processed

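ChIP-seq peak lists of Ptf1a (1 mouse) and c-Myc (pool of 3 mice) from pancreas of Ela1-Myc mice were used. Fixation was for 20 min in 1% formaldehyde, and chromatin was sheared to 300 to 500 bp, per the labels' protocols. The submitters' processing notes name MACS 1.4.1, BWA 0.5.9-r16, FastQC 0.9.4 and CASAVA 1.8, and the build mm9. The sources used here do not give the settings, the threshold for a peak or whether the inputs were used. The authors deposited 1 list per library with a score for each peak, whose scale is not stated. The lists give no read counts, so depth is unknown.

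Peaks were assigned to a window by midpoint, and called shared at an overlap of at least 1 bp. Starts were shifted to count from 1. Tiles were 100 kb long and chains joined peaks at most 12.5 kb apart. Every peak in the windows is named, with the nearest peaks outside. Motifs were searched on both strands of RefSeq promoters (GRCm38.p6). The overlap counting was tested on simulated data. The genes, their windows and the lists were chosen with earlier results of these data known, so tile shares are descriptions and not tests. Peak sequences were planned and not analysed here, since no mm9 sequence was at hand. Alternatives were other windows, overlap rules, score limits and tiles, and joined peaks. Python 3.11.15, numpy 2.4.6, pandas 2.3.3, scipy 1.17.1 and matplotlib 3.10.9 were used.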

Additional observations from a re-analysis of the deposited data

How the results depend on the processing

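Of 55 values obtained under the alternatives, 41 stayed within 1.5 times the count reported or within the exact 95% binomial interval of the share of tiles. That interval treats tiles as independent draws, which they are not. It served only as a yardstick and measures no error between mice. With a score of at least 100 the Xbp1 window held 6 Ptf1a and 3 Myc peaks, and the Hspa5 window 0 Myc peaks. Joining peaks at most 500 bp apart, an alternative chosen after seeing the data, left 6 Ptf1a sites around Xbp1, and 1.65% of tiles then held as many Ptf1a and 0.453% as many Myc sites as the Xbp1 window. The Hspa5 window held 0 Myc peaks at 50 kb and 3 at 200 kb, and at 200 kb the Xbp1 window held 11 Ptf1a and 8 Myc peaks. The number of shared peaks around Xbp1 was 3 in each list under every overlap rule tried. It was 2 in each list with a score of at least 100 in both lists, or with close peaks joined. No rule based on the gap between peak edges was tried. The Ptf1a peaks 11 and 243 bp from a Myc peak therefore stayed unshared under the overlap rules. Around Hspa5 the number of shared peaks was 0 under all of these alternatives. With the 2 peaks 18.3 kb apart no other value was possible. These values are among the 41 but say nothing about stability. Among tiles that hold a peak of either list, 0.935% had as many Ptf1a and 0.216% as many Myc peaks as the Xbp1 window, and 91.4% and 43.6% as many as the Hspa5 window. Counting peaks with a score of at least 100, the shares for Ptf1a were 0.592% for Xbp1 and 21.1% for Hspa5. By construction these alternatives count fewer peaks or tiles. No tile share was obtained for Myc around Hspa5 at that score, since no peak was left. Leaving out a replicate could not be done. No paired analysis was possible because Ptf1a and Myc were each profiled in a single library.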

Other observations

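Beyond the windows, the surroundings of the 2 genes differed in which side held peaks. Within 150 kb below the Xbp1 window there were 4 Ptf1a peaks (scores 77.6 to 174) and 3 Myc peaks (scores 55.2 to 106), of which 1 pair overlapped, and within 150 kb above it there was no peak of either list. Around Hspa5 the order was the opposite. No peak lay within 150 kb below the window, and 1 Ptf1a peak (score 69.98) and 4 Myc peaks (scores 52.7 to 251) lay above it. The Ptf1a peak and 1 of these Myc peaks overlapped. Empty stretches are common, since 67.4% of 100 kb tiles held no peak of either list. The share was not obtained for stretches of 150 kb. Over the whole lists 13.4% of Ptf1a and 41.4% of Myc peaks overlapped the other list. These values are descriptions of 1 library per factor.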
